A study of Mus musculus with 2 samples.

Results

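Ly6a, Ly6c1, Ly6c2 and Ly6e encode small cell surface proteins of the Ly6/uPAR family, and they were followed here in tumour endothelial cells (ECs). The 4 genes were taken by name, with no threshold on their values, from the 17139 genes listed in both libraries of the data, and all 4 were found. Droplet-based scRNA-seq was done on live CD45-/CD31+ cells sorted by FACS from implanted LLC (Lewis lung carcinoma) tumours of C57BL/6 J males. The mice were 8 to 9 weeks old at implantation, and 1 tumour had received PBS and the other cGAMP. cGAMP is the cyclic dinucleotide that activates STING, and 14 μg in 70 μl was given into the tumour. Per the methods the tumours were sampled 24 h later, although a supplementary legend of the study gives another time. Each library came from 1 mouse, so no test of a treatment difference was possible, and every interval given covers counting error only.

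Proteins of this family share a fold with 3 loops held by disulfide bonds, the three-finger fold, and most are tied to the outer membrane leaflet by a glycosylphosphatidylinositol (GPI) anchor. Ly6a, better known as stem cell antigen 1 (Sca-1), marks haematopoietic stem cells and most mouse ECs and is a known target of interferons. Ly6c1 and Ly6c2 encode the Ly-6C antigens, Ly6c1 being the copy used by ECs and Ly6c2 the copy that marks inflammatory monocytes. Ly6e restricts the entry of several viruses and is also a known interferon target.

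The libraries held 2517 PBS-treated and 1340 cGAMP-treated ECs, with 92081146 and 63366746 UMIs and medians of 29780 and 41178 UMIs per cell. The median share of mitochondrial UMIs was 4.49% and 2.87%, and 1 cell barcode was found in both libraries. Pecam1 (CD31) was detected in 99.7% and 99.6% of cells and Cdh5 (VE-cadherin) in 99.6% and 99.7%, whereas Ptprc, which encodes CD45, was detected in 0.795% and 2.16%. Summed transcripts of 14 leucocyte markers nevertheless amounted to 18.7 CPM (UMIs per 1000000 UMIs of the library) in PBS-treated ECs and 55.8 CPM in cGAMP-treated ECs, with 1 marker at 0 in the latter. This sum is given again where it bears on a result.

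All 4 genes lie within a short stretch of mouse chromosome 15. On GRCm38, Ly6e runs from 74955051 to 74959905 on the plus strand. Ly6a (74994877 to 74998031), Ly6c1 (75044018 to 75048830) and Ly6c2 (75108158 to 75111970) follow on the minus strand. The coding sequences of the 2 Ly-6C genes are shown because their transcripts differ so little that counts of the rarer gene depend on few bases. Both coding sequences hold 396 bases, are spliced from 3 coding exons and were read from GENCODE vM21 transcripts in the 5′ to 3′ direction, at chr15:75045402-75048511 for Ly6c1 and chr15:75108543-75111667 for Ly6c2. Shown are the 2 stretches that hold all 9 differences, from base 1 to 90 and from base 241 to 396, counted from the start codon. Capitals mark bases at which the other gene has a different base.
Ly6c1, 1 to 90: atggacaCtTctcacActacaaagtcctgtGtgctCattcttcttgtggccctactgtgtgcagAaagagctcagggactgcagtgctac
Ly6c2, 1 to 90: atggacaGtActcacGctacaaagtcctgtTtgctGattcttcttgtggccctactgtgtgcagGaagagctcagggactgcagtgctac
Ly6c1, 241 to 396: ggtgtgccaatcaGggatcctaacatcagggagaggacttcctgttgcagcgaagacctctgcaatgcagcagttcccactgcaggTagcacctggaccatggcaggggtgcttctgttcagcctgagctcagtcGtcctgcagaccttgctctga
Ly6c2, 241 to 396: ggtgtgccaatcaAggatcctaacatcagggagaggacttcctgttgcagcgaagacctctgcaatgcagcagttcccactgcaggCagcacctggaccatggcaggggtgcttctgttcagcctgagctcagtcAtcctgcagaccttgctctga
The pair shared 387 of 396 bases (97.7%). The first 6 differences lie within the first 65 bases from the start codon, where the signal peptide is encoded, and the other 3 follow from base 254 on, so that 188 bases in a row are identical. Ly6a shared 82.0% of aligned coding bases with Ly6c1 and 53.8% with Ly6e. The droplet kit reads the 3′ ends of transcripts, and over their last 500 bases the Ly6c1 and Ly6c2 transcripts were 95.5% identical. Of the 411 stretches of 90 bases in that part of each transcript, 35 (8.52%) occurred in the other Ly-6C gene, whereas none of those of Ly6a or Ly6e occurred in any other annotated gene. Reads from such stretches cannot be assigned to 1 of the 2 genes, and counts of Ly6c2 are uncertain in that respect.

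Upstream of the coding part the 2 Ly-6C genes differed more. RefSeq promoters on GRCm38.p6 were found for 2 of the 4 genes, and their 250 bases before the start site are shown because the 2 genes differed widely in level. The window lies at chr15:75048838-75049087 for Ly6c1 and at chr15:75111972-75112221 for Ly6c2, on the minus strand, and is written towards the start site. Capitals mark bases that differ from, or are missing in, the aligned part of the other promoter.
Ly6c1: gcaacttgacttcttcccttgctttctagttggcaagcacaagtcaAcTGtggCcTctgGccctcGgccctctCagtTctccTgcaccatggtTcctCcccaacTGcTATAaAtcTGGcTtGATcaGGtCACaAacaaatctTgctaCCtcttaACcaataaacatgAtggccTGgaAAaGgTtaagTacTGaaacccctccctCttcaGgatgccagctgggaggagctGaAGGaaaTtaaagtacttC
Ly6c2: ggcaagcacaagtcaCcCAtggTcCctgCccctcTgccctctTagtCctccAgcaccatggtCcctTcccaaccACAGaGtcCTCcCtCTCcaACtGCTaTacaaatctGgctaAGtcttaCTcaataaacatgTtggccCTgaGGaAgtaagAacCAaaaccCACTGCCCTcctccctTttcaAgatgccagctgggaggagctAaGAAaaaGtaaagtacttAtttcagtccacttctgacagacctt
Over the 228 columns in which the windows overlap, 164 (71.9%) were identical. Both strands of each window were searched for 2 motifs: GAAANNGAA, the core of the interferon-stimulated response element, and TTCNNNGAA, the interferon-gamma-activated element called GAS. These letters occurred in 7.13% and 7.02% of 32851 mouse promoter windows of the same length, and in neither of the windows shown.

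Ly6a, Ly6c1 and Ly6e were abundant EC transcripts, and each was higher in the cGAMP library, Ly6a the most. Ly6c2 was close to absent in both. Levels are in CPM, from the gene's UMIs added up over all cells of 1 library. These are counts of transcript ends and not of reads along the gene, so they were not scaled by length. Ly6a was at 978 CPM (exact Poisson 95% interval 972 to 984) in PBS-treated and at 2290.1 CPM (2278 to 2302) in cGAMP-treated ECs. Ly6e was at 791 CPM (786 to 797) and 1421 CPM (1411 to 1430.0). Ly6c1 was at 521 CPM (516 to 526) and 906 CPM (898 to 913). Among all genes these levels placed 145th, 174th and 251st in the PBS library and 80th, 118th and 161st in the cGAMP library. None of the 3 pairs of intervals overlapped.

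The log2 ratio of cGAMP over PBS was 1.23 (counting interval 1.22 to 1.24) for Ly6a, 0.84 (0.83 to 0.86) for Ly6e and 0.80 (0.78 to 0.82) for Ly6c1. As folds these were 2.34, 1.80 and 1.74. A gene was called higher at 2-fold or more, among the 6045 genes that reached 20 CPM on either side. This call was made for Ly6a and for neither Ly6e nor Ly6c1, against 1.70% of the 6045 genes. At 1.5-fold or more all 3 were called, against 4.45% of genes. In the order of ratios Ly6a stood at place 90, Ly6e at 132 and Ly6c1 at 140, and the median log2 ratio of all genes tested was -0.05.

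The higher levels were seen in most cells. The median PBS-treated EC held Ly6a at 853 CPM and the median cGAMP-treated EC at 2081 CPM. Of the cGAMP-treated ECs, 90.9% were above the PBS median for Ly6a, 90.2% for Ly6e and 69.9% for Ly6c1. Median levels per cell were 734 and 1347 CPM for Ly6e and 461 and 770 CPM for Ly6c1. Ly6c1 varied most between cells, with coefficients of variation of 0.997 (PBS) and 0.880 (cGAMP), against 0.759 and 0.593 for Ly6a and 0.520 and 0.404 for Ly6e. Part of this variation is counting error, which is larger for a gene at a lower level. After each cell was thinned to 5000 UMIs, which dropped 70 shallower cells from the PBS library and 13 from the cGAMP library, Ly6a had a UMI in 91.6% (exact binomial 95% interval 90.4 to 92.7) and 99.0% (98.3 to 99.5) of the cells. The shares were 95.5% and 99.1% for Ly6e and 80.5% and 87.3% for Ly6c1. Unthinned they were 98.3% and 99.9% for Ly6a, 99.4% and 99.9% for Ly6e and 96.3% and 98.1% for Ly6c1. For comparison, Lyz2, a leucocyte transcript that ECs should lack, had a UMI in 2.17% and 5.73% of thinned cells.

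**Figure D1:**
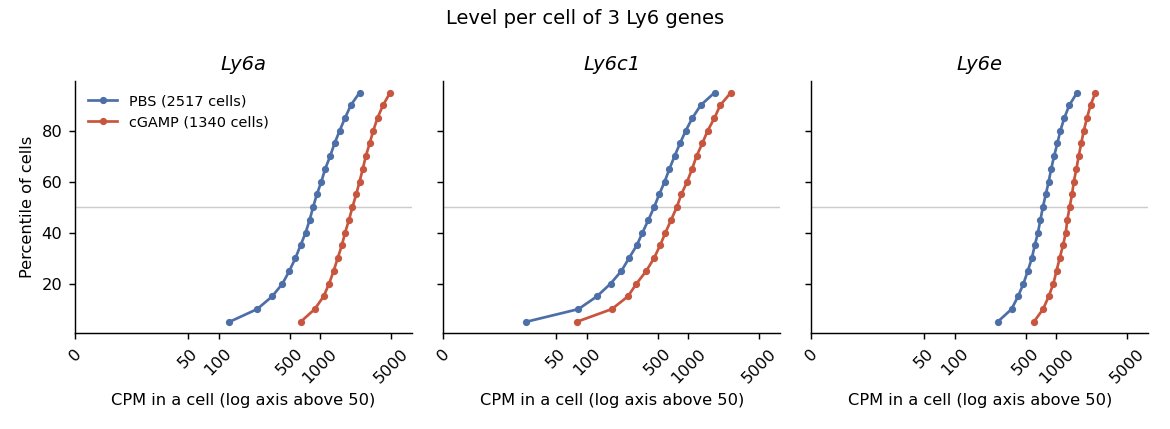
Each panel gives the level of 1 gene per cell, in CPM on a log axis above 50, at percentiles of the cells of the PBS library (blue) and the cGAMP library (red). The cGAMP curve lies to the right at the median for all 3 genes, from 853 to 2081 CPM for Ly6a, and the gap is smallest for Ly6c1, from 461 to 770 CPM.

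Ly6c2 gave 32 UMIs in all PBS-treated ECs, or 0.348 CPM (0.238 to 0.491). In cGAMP-treated ECs it gave 123 UMIs, or 1.94 CPM (1.61 to 2.32). The log2 ratio was 2.48, with a counting interval of 1.91 to 3.09. Of 2517 PBS-treated ECs 24 (0.954%) held a Ly6c2 UMI, and of 1340 cGAMP-treated ECs 78 (5.82%). After thinning these shares were 0.163% and 0.754%, from 4 and 10 cells, below those of Lyz2 in both libraries. Whether these counts are background was not tested. Of the cells with a UMI, 21 and 73 held a single 1. In the PBS library the cell with the most Ly6c2 held 7 UMIs, beside 93 UMIs of leucocyte markers. Its counterpart in the cGAMP library held 33 Ly6c2 UMIs and 27 of leucocyte markers. Without these cells the log2 ratio was 2.39 (1.74 to 3.09), an alternative chosen after the data had been seen. Cells without any leucocyte marker UMI numbered 1508 and 316 and held 14 and 12 Ly6c2 UMIs, a log2 ratio of 1.98 (0.73 to 3.20). Relative to Ly6c1, there were 0.667 Ly6c2 UMIs per 1000 (0.456 to 0.942) after PBS and 2.14 per 1000 (1.78 to 2.56) after cGAMP. The ECs with a Ly6c2 UMI held a median of 30 Ly6c1 UMIs in the PBS library, against 14 in those without, and of 55.5 against 32 in the cGAMP library. They also held more UMIs in all, with medians of 33030 and 48684. The part of leucocyte RNA, and of Ly6c1 reads assigned to Ly6c2, in these counts was not tested.

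To place the genes among EC states, the cells were clustered without any gene of the Ly6 family and without genes that differed 2-fold between the libraries. Of 8 clusters, 5 could be named from markers, and clusters are listed here as c0 to c7. The arterial cluster (c3), led by Gja4, Gja5 and Sema3g, held 399 PBS-treated and 197 cGAMP-treated ECs. The stalk-like cluster (c1), led by Ackr1 and Selp and also by the immune genes Csf3 and Cd14, held 417 and 352. Proliferative ECs (c2), led by Ube2c, Cenpf and Mki67, numbered 463 and 181. Tip-like ECs formed c4, led by Gal, Chga and Cxcr4 and also by the immune genes Rsad2 and Ccl2, with 374 and 124 cells. They also formed c6, led by Pgf, Bnip3 and Adm along with the arterial marker Cxcl12, with 81 and 43 cells. Unnamed were c0 (546 and 251 cells, led by Esm1 and Ramp3), c5 (191 and 141, led by the replication genes Ung, Hells and Mcm5) and c7 (46 and 51, led by Igfbp5, Ctsh and Adamts8). In c7, 11 of 12 stalk-like markers were raised, but its 10 leading genes held an arterial marker, Mgp, and no stalk-like one. In c0, 3 of the 10 leading genes were tip-like markers, but only 1 tip-like marker was raised 2-fold. Other ways of assigning cells gave 631 to 845 PBS-treated and 187 to 371 cGAMP-treated tip-like ECs, against 455 and 167 here. For arterial ECs they gave 208 to 689 and 111 to 309, against 399 and 197. For stalk-like ECs they gave 260 to 606 and 321 to 533, against 417 and 352. Rebuilt clusters need not be those of the study.

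Arterial ECs carried the most Ly6c1. In the PBS library Ly6c1 was at 1131 CPM (1110.3 to 1151) in the arterial cluster, 573 CPM in the stalk-like cluster and 570.1 CPM in c7. It was at 472 CPM in c0, 425 CPM in c4, 405 CPM in the proliferative cluster and 395 CPM in c5, and lowest in c6, at 262 CPM (244 to 282). The highest and lowest clusters thus differed 4.31-fold. The intervals of the stalk-like cluster and c7 overlapped, as did those of the proliferative cluster and c5. In the cGAMP library the arterial cluster was again highest, at 1842 CPM (1810 to 1875), followed by c7 at 1239 CPM, the stalk-like cluster at 1000.5 CPM and c5 at 843 CPM. The proliferative cluster at 693 CPM and c0 at 688 CPM had overlapping intervals, and c4 at 625 CPM and c6 at 517 CPM were lowest. Arterial over all other ECs, the log2 difference in Ly6c1 was 1.35 after PBS and 1.21 after cGAMP. Genes at least 1.5-fold higher in arterial ECs made up 6.75% and 5.10% of those tested, and 0.960% and 0.835% of genes had a larger difference than Ly6c1.

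Ly6e had a flatter profile than Ly6c1 in both libraries, with the same clusters at its ends. In the PBS library it ranged from 551 CPM (524 to 579) in c6 to 1045 CPM (1026 to 1065) in the arterial cluster, 1.90-fold. The stalk-like cluster was second, at 876 CPM, and c7 at 827 CPM overlapped both this cluster and c0 at 777 CPM. The proliferative cluster (743 CPM), c4 (733 CPM) and c5 (725 CPM) had overlapping intervals. In the cGAMP library the range narrowed to 1.43-fold, from 1209 CPM in c6 to 1729 CPM in arterial ECs, with the stalk-like cluster at 1626 CPM. The other 5 clusters lay between 1279 and 1346 CPM, each overlapping its neighbour. Arterial over other ECs, the log2 difference in Ly6e was 0.46 and 0.32, and 10.7% and 14.1% of genes had a larger one.

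The order of the clusters by Ly6a differed between the libraries. In the PBS library the arterial cluster was highest, at 1526 CPM (1503 to 1550.1), then c7 at 1376 CPM (1305 to 1449), c0 at 1064 CPM, c6 at 983 CPM and c4 at 895 CPM. The stalk-like cluster at 833 CPM (816 to 851), the proliferative cluster at 824 CPM and c5 at 813 CPM were lowest and had overlapping intervals. In the cGAMP library c7 stood highest, at 3415 CPM (3320 to 3513), then the arterial cluster at 3198 CPM (3155 to 3242) and the stalk-like cluster at 2619 CPM (2593 to 2644). Next came c5 (2158 CPM), c6 (2106 CPM), c0 (2062 CPM) and c4 (2028 CPM), each overlapping its neighbour, and the proliferative cluster at 1698 CPM. Arterial over other ECs, the log2 difference in Ly6a was 0.75 and 0.55, and 4.34% and 5.56% of genes had a larger one.

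The stalk-like cluster moved from the sixth to the third place. Its Ly6a was below that of all other ECs in the PBS library, by a log2 difference of -0.26, and above it in the cGAMP library, by 0.26. The log2 ratio of cGAMP over PBS was 1.65 (1.62 to 1.68) in stalk-like ECs and 1.13 in all others, a difference of 0.52 (0.48 to 0.56), and 1.84% of 6045 genes had a larger one. Among single clusters the next largest Ly6a ratios were 1.41 (1.37 to 1.45) in c5 and 1.31 (1.23 to 1.40) in c7. Most stalk-like markers were raised in c7 too. Within the stalk-like cluster the upper quartile of PBS-treated ECs was 1095 CPM and the lower quartile of cGAMP-treated ECs 1539 CPM. For Ly6c1 and Ly6e the same difference of log2 ratios was 0.04 (-0.01 to 0.08) and 0.10 (0.06 to 0.13), and 40.1% and 28.3% of genes had a larger one. The size of the Ly6a difference depended on how cells were assigned and ranged from 0.35 by marker scores alone to 0.99 without integration, always with the stalk-like ratio the larger. The other 2 genes depended on it too: that of Ly6c1 reached 0.54 (0.48 to 0.60) without integration, and that of Ly6e was -0.01 (-0.05 to 0.03) with all variable genes and 0.01 (-0.02 to 0.04) by marker scores.

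In every cluster each of the 3 genes was higher in the cGAMP library beyond counting error. The Ly6a ratio was 2-fold or more in 7 of 8 clusters, with c0 at a log2 ratio of 0.95. Ly6c1 reached it in c5 (1.10) and c7 (1.12), and Ly6e in c6 (1.13). Genes called 2-fold higher made up between 1.44% (c0) and 4.15% (c6) of those tested, with 2.60% in the stalk-like cluster, 2.14% in the arterial cluster, 2.05% in c5, 1.73% in c4, 1.46% in the proliferative cluster and 3.37% in c7. Leucocyte markers summed to 397 CPM in the 43 cGAMP-treated cells of c6, against 51.7 CPM in the PBS-treated ones, and to at most 90.3 CPM in any other cluster. Their part in the c6 values was not tested. Ly6c2 gave between 1 and 7 UMIs per cluster in the PBS library, and all 7 of c6 came from 1 cell. In the cGAMP library its highest count was 42 in the proliferative cluster, 33 of them from 1 cell. The 43 cGAMP-treated cells of c6 gave 0, which allows up to 1.51 CPM when a floor of 3 UMIs is set (1.86 CPM by the exact Poisson interval), although their leucocyte markers were highest.

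**Figure D2:**
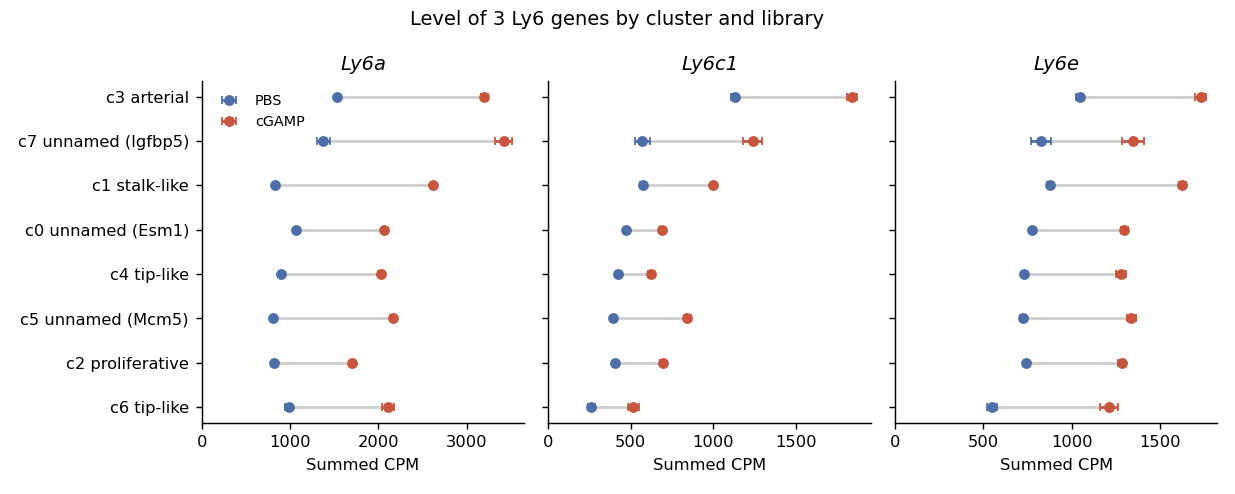
Each row is a cluster and each panel 1 gene, with summed CPM on the x axis for the PBS library (blue) and the cGAMP library (red) and bars for exact Poisson 95% intervals. Arterial ECs lie farthest right for Ly6c1 (1131 and 1842 CPM) and Ly6e (1045 and 1729 CPM). The grey line for Ly6a is longest in c7 (1376 to 3415 CPM). It is also longer in stalk-like ECs (833 to 2619 CPM) than in c0 (1064 to 2062 CPM).

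Ly6c1 and Ly6e followed each other across states. Over the 16 sums of cluster and library, each library centred on its own mean, Pearson's r was 0.906 between Ly6c1 and Ly6e, 0.759 between Ly6a and Ly6c1 and 0.559 between Ly6a and Ly6e. These points share 2 mice, and clusters differ in depth, so r is given as a description. Among 6039 genes outside the family, those most like Ly6c1 were Nck1 (0.967), Notch1 (0.956), Epas1 (0.950), Glul (0.944) and Armcx1 (0.934). Notch1 is a receptor with known roles in arterial ECs, and Epas1 encodes HIF-2α. Most like Ly6e were Taok2 (0.929), Ushbp1 (0.924), Pik3r3 (0.920), Epas1 (0.914) and 4833403J16Rik (0.911). Most like Ly6a were Saraf (0.935), Lrpap1 (0.915), Ncstn (0.907), Crlf2 (0.902) and Stc1 (0.899). For Ly6c2 the highest were Extl3 (0.766), Ccdc184 (0.741), Polk (0.696), Rest (0.683) and mt-Atp8 (0.647), over sums of 0 to 42 UMIs. Centring removes the difference between the libraries, so r does not bear on the cGAMP ratio. The genes named for Ly6c1 were each lower in the cGAMP library, at log2 ratios of -0.38 (Epas1) to -0.06 (Nck1). Those for Ly6e were at -0.65 (Pik3r3) to -0.22 (Taok2), except 4833403J16Rik (0.06). Those for Ly6a were higher, at 0.15 (Ncstn) to 0.36 (Crlf2). Those for Ly6c2 ran from -0.80 (mt-Atp8) to 0.03 (Polk). By Spearman's rho 2 of the 5 genes were kept for Ly6a, Ly6c1 and Ly6e and 3 for Ly6c2. From cell to cell within a library, Spearman's rho between Ly6a and Ly6c1 was 0.635 in the 2517 PBS-treated and 0.639 in the 1340 cGAMP-treated ECs, and 0.462 and 0.507 after thinning. Between Ly6a and Ly6e it was 0.491 and 0.591, and 0.338 and 0.408 after thinning. Between Ly6c1 and Ly6e it was 0.480 and 0.438, and 0.296 and 0.320 after thinning.

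The 3 abundant genes were set beside a list of 38 interferon-stimulated genes that holds no Ly6 gene. Of the 36 list genes that reached 20 CPM, all 36 were higher in the cGAMP library and 24 were called 2-fold higher, against 1.70% of all genes tested, with a median log2 ratio of 1.36. Ly6a was thus below the middle of the list, with 23 genes above it, and Ly6e and Ly6c1 were in its lower part, with 28 above. The paper names Cxcl9, Cxcl10, Irf7, Irgm1, Isg15 and Oasl2 of this list as differing between these same libraries. The count of list genes called, and the places of the Ly6 genes in the list, were therefore partly fixed in advance. The list ran from Cxcl9 (3.15), a T cell chemokine, Irf7 (2.98), a transcription factor of the interferon response, Irgm1 (2.15), an immunity-related GTPase, and Ifit3 (1.87) down to Ifit2 (0.41) and Ddx58 (0.41), which encodes the RNA sensor RIG-I. Directly above Ly6a stood Tap1 (1.24), the peptide transporter of antigen presentation, and below it Ifi44 (1.09). Directly below Trim30a (0.93) lay both Ly6e and Ly6c1. Ly6c2 lay between Irf7 and Irgm1, at a level of few UMIs.

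Within each library, cells with more transcripts of the interferon list held more of the 3 Ly6 genes. Cells were ranked by the summed CPM of the list, to which Ifitm3 and B2m contributed 54.8% (PBS) and 50.5% (cGAMP) of UMIs, and divided into 5 quintiles. These quintiles are ranges of a score and not cell types. Ly6a went from 661 CPM in the lowest to 1554 CPM in the highest quintile of the PBS library, and from 1243 to 3460.4 CPM in the cGAMP library. Ly6e went from 510.0 to 1187 CPM and from 913 to 1893 CPM. Ly6c1 went from 313 to 708 CPM and from 488 to 1220.3 CPM. Values increased at every step in both libraries. As log2 differences between the highest and lowest quintile, these were 1.23 and 1.48 for Ly6a, 1.22 and 1.05 for Ly6e and 1.18 and 1.32 for Ly6c1. Stalk-like ECs made up 2.39% of the lowest and 21.3% of the highest quintile in the PBS library, and 6.34% and 44.8% in the cGAMP library. Arterial ECs made up 7.36% and 19.9% in the PBS library. In the cGAMP library they made up 8.21% and 13.4%, with 17.9% in the second quintile. The part of these shares in the increase was not tested.

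**Figure D3:**
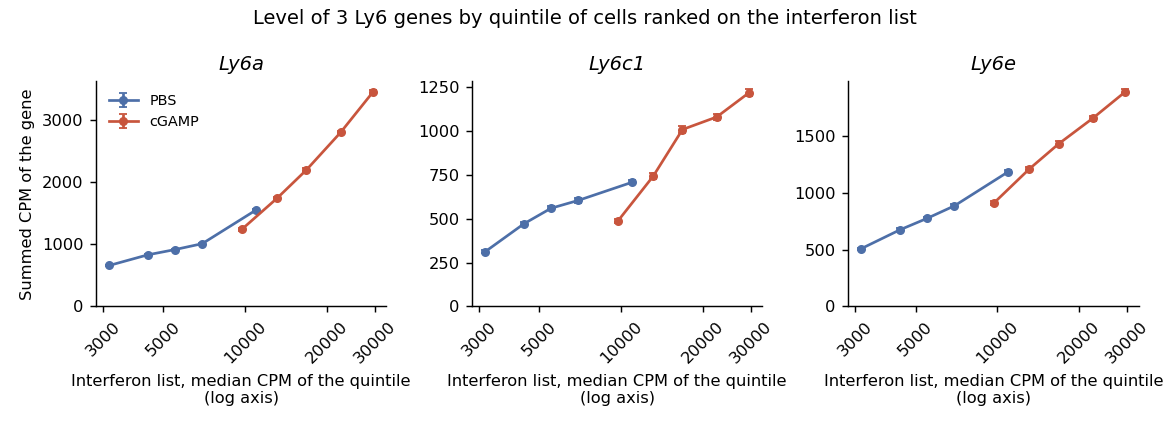
For each quintile of cells the x axis gives the median CPM of the interferon list on a log scale and the y axis the summed CPM of the Ly6 gene, with exact Poisson 95% intervals, in the PBS library (blue) and the cGAMP library (red). Levels increase from quintile to quintile in both libraries, for Ly6a from 661 to 1554 CPM and from 1243 to 3460.4 CPM, and the libraries overlap on the x axis only between the highest PBS and the lowest cGAMP quintiles.

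When cells of the 2 libraries were binned by the same absolute score, the ratios were smaller. The bins with the lowest scores held only 3 and 2 cGAMP-treated ECs and are not compared. In the 3 upper bins, with 647 and 124, 218 and 553, and 114 and 658 cells of the PBS and cGAMP libraries, the log2 ratio of Ly6a was 0.05 (0.01 to 0.09), 0.23 (0.20 to 0.26) and 0.41 (0.38 to 0.45). That of Ly6e was -0.13 (-0.18 to -0.09), 0.07 (0.03 to 0.10) and 0.16 (0.12 to 0.20). That of Ly6c1 was -0.45 (-0.51 to -0.39), 0.21 (0.16 to 0.25) and 0.28 (0.24 to 0.33). All 9 values were below the ratio over all cells. The median score was still larger in the cGAMP library in each bin, at 8511 against 7288, 13150 against 11653 and 24187 against 23332 CPM. In the third bin, the lowest of the 3, arterial ECs made up 20.6% of PBS-treated and 6.45% of cGAMP-treated cells. Stalk-like ECs made up 27.5% and 0.806% there. Arterial shares were 19.7% and 15.9% in the fourth bin, and in the highest bin the cGAMP share was the larger. The part of these scores and shares in the ratios was not tested. Leaving Ifitm3 and B2m out of the score, chosen after the data had been seen, gave 0.54 for Ly6a, 0.28 for Ly6e and 0.41 for Ly6c1 in the highest bin. In the third bin Ly6e then turned to 0.05 (0.01 to 0.09) and Ly6a was at 0.23 (0.19 to 0.26), while Ly6c1 stayed below 0, at -0.31 (-0.36 to -0.26).

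The differences between states remained within these bins for arterial ECs. In the 2 bins of the cGAMP library and the 4 of the PBS library with at least 20 arterial cells, arterial over other ECs gave a log2 difference in Ly6c1 between 0.95 and 2.10, in Ly6a between 0.40 and 1.40 and in Ly6e between 0.25 and 0.73. For stalk-like ECs the Ly6a values were below those of other ECs in each of these bins. In the fourth bin the log2 difference was -0.54 (-0.63 to -0.46) in the PBS library, from 48 stalk-like and 170 other cells, and -0.14 (-0.18 to -0.10) in the cGAMP library, from 102 and 451. In the highest bin of the cGAMP library it was -0.04 (-0.06 to -0.02). The interferon list itself had a log2 ratio of 1.59 in the stalk-like cluster, against 1.27 in c0 and 1.91 in c6, the lowest and highest clusters.

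The other genes of the Ly6/uPAR family did not all go the same way. Of a list of 41 family genes, 17 were in the table, the 4 described and 13 others, of which 3 reached 5 CPM. The other 10 had at most 2.53 CPM. Gpihbp1, which carries lipoprotein lipase across capillary endothelium, was more abundant than Ly6a in the PBS library, at 1215 CPM (1208 to 1222). It was lower in the cGAMP library, at 962 CPM (955 to 970.0), a log2 ratio of -0.34 (-0.35 to -0.32). In stalk-like ECs it went from 532 to 231 CPM, a log2 ratio of -1.20, whereas in arterial ECs it was at 1851 and 1997 CPM. Plaur, the urokinase receptor, was at 98.0 CPM (96.0 to 100.1) and 230.2 CPM (226 to 234), with a log2 ratio of 1.23 (1.19 to 1.27), next to Ly6a in the order of ratios. Its ratio was largest in stalk-like ECs, at 1.77. Cd59a, an inhibitor of the complement membrane attack complex, was at 33.1 and 34.7 CPM, with a log2 ratio of 0.07 (-0.01 to 0.15).

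The enzymes that make and attach GPI anchors, on which these proteins depend for their place in the membrane, differed less between the libraries than the 3 abundant Ly6 genes. Of 11 genes of a GPI anchor list with at least 20 CPM, 0 were called in either direction, and their median log2 ratio was 0.02. With 1.70% of all genes called higher and 1.29% lower, a count of 0 among 11 is near the background and says nothing particular about the list. They ran from Dpm2 (0.20) and Dpm1 (0.16), parts of the enzyme that makes dolichol phosphate mannose, to Pigt (-0.26), a part of the transamidase that attaches the anchor, and Pigq (-0.30), which acts at the first step. With 1 library per condition the 0 calls come from a threshold of size and not from a test. Of 11 other GPI-anchored proteins of ECs, 3 were called higher, against 1.70% of genes, and 1 lower. The higher ones were Car4 (2.11), a carbonic anhydrase of capillaries, Bst2 (1.69), which is also on the interferon list and holds virions at the membrane, and Plaur (1.23). The lowest were Cd109 (-1.62), called 2-fold lower against 1.29% of genes, and Cdh13 (-0.89), T-cadherin, which was not called.

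**Figure D4:**
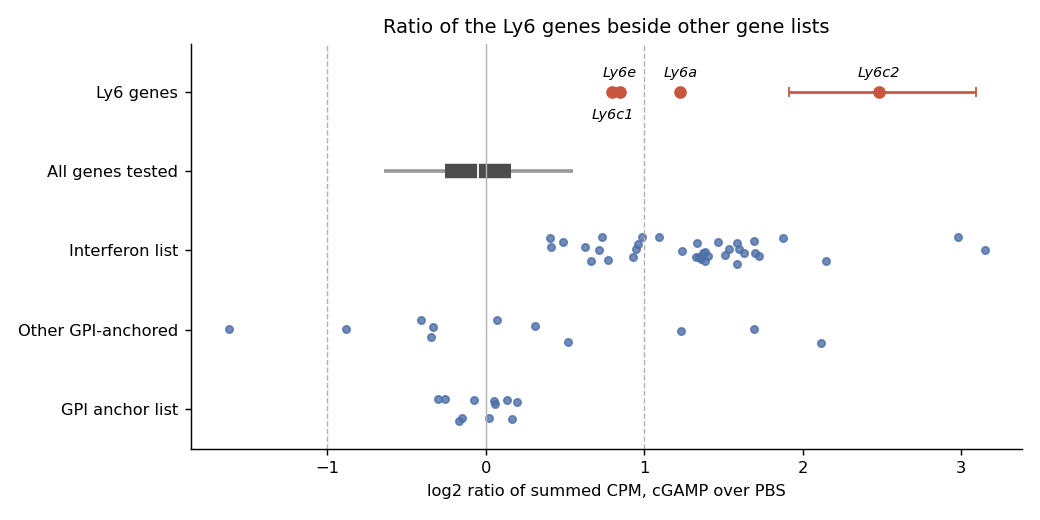
The x axis gives the log2 ratio of summed CPM, cGAMP over PBS, for the 4 Ly6 genes with counting intervals (red) and for the genes of 3 lists (blue points), with dashed lines at 2-fold. The grey bar covers the 5th to 95th and the dark bar the 25th to 75th percentile of the 6045 genes tested, from -0.64 to 0.55 and from -0.26 to 0.16, and Ly6c1, Ly6e and Ly6a lie to the right of both, between 0.80 and 1.23.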

How the data were processed

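Per the labels and methods, the authors used Cell Ranger 3.0.0 with mm10 and Seurat 3.1.1. Cells were dropped below 500 genes or above 10% mitochondrial UMIs, as were genes seen in under 3 cells and Pecam1-negative clusters. The droplet kit is version 3 in the methods but version 2 in the labels. The deposited values are natural log values, ln of 1 plus UMIs scaled to 10000 per cell, and cover kept ECs only, where raw counts of unfiltered cells had been assumed in the design. UMI counts were recovered from the steps between values, and 100% of the 13483883 (PBS) and 7904326 (cGAMP) values above 0 were whole within 0.01.

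Each library came from 1 mouse, so no test was made. Ratios have exact conditional binomial 95% intervals, and differences of log2 ratios have normal-approximation intervals, all for counting error only. The ratio function was tested on simulated data. Clustering used Seurat 5.3.0 (R 4.3.3) with 2201 of 2500 variable genes, integration anchors, 30 principal components and a resolution of 0.5, the study's own resolution not being given in the sources used here. A cluster took the name of a state if 3 or more of its markers were raised 2-fold (5 CPM added to both sides) and no other state had more markers among the 10 leading genes. No doublets were removed.

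The 4 genes, the lists and the naming rule for genes were chosen with earlier results of these data known. Besides the 4, the text names family genes with at least 5 CPM, the 5 genes most like each, the 4 highest and 2 lowest interferon genes and those next to a Ly6 gene, the 2 highest and 2 lowest genes of the GPI lists, and markers on which a cluster or the sort rests. Leading genes of clusters were chosen after their values were seen. Sequences were aligned with Biopython 1.88. Alternatives were other scalings, cell filters, thinning and clusterings.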

Additional observations from a re-analysis of the deposited data

How the results depend on the processing

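With 1 mouse per library no spread between mice is known, and counting intervals are so narrow that most alternatives left them. The log2 ratios of Ly6a, Ly6c1 and Ly6e, in that order, kept their direction at 1.18, 0.68 and 0.80 by the mean of per-cell CPM, at 1.28, 0.85 and 0.89 by median-of-ratios scaling, at 1.21, 0.74 and 0.81 with equal state proportions, at 1.21, 0.84 and 0.87 with a mitochondrial limit of 5%, and at 1.18, 0.74 and 0.79 in thinned cells. In cells with no leucocyte UMI they were 1.13, 0.80 and 0.78. Ly6c2 had 1.88 in thinned cells, from few UMIs.

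For resolution 0.3, resolution 1.2, no integration, all variable genes and marker scores without clustering, in that order, the log2 difference of arterial over other ECs, averaged over the libraries, was 0.55, 0.91, 0.69, 0.72 and 0.60 for Ly6a (0.65 as reported), 0.99, 1.56, 1.40, 1.37 and 1.15 for Ly6c1 (1.28) and 0.35, 0.35, 0.33, 0.37 and 0.27 for Ly6e (0.39). The difference between the stalk-like ratio and that of other ECs was 0.74, 0.86, 0.99, 0.40 and 0.35 for Ly6a (0.52), 0.19, 0.20, 0.54, 0.07 and 0.092 for Ly6c1 (0.04) and 0.16, 0.19, 0.23, -0.014 and 0.0089 for Ly6e (0.10). The Ly6e value thus reversed with all variable genes, and its counting interval then covered 0. The cause was not tested. Of 58 recomputed values, 12 stayed within the counting interval of the value reported, 45 moved outside it in the same direction and 1 reversed. The 12 include 6 of the 7 values for Ly6c2, whose interval was wide (1.91 to 3.09). They also include each gene's ratio without the cell with the most Ly6c2 UMIs in each library, an alternative chosen after the data had been seen. No paired analysis was possible because each condition had 1 library.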
